A study of Mus musculus with 16 samples.

Results

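Activin and 8 related secreted signals were followed in mouse cortical neurons that were depolarized with KCl while the transcription factor c-Fos was depleted or not. The members were Inhba, Fst, Pdgfa, Pdgfc, Hbegf, Vegfa, Nrg1, Igf1 and Tgfb2, chosen by gene symbol in the platform annotation of the array. They held 21 of 45037 non-control probe sets and 9 of 18193 named genes. All 9 passed the filter on low values and were among 13915 genes tested.

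Cortical cells were taken from C57BL/6 embryos at day 16.5 and cultured. On day 5 in vitro they were exposed for 6 h, with polybrene, to lentivirus that expressed a short hairpin RNA (shRNA), directed at c-Fos or, in the controls, at firefly luciferase. On day 7 in vitro the cultures were silenced and then depolarized with KCl for 0, 1, 3 or 6 h. Each of the 8 groups, called here control or c-Fos shRNA at its KCl time, held 2 single-colour Affymetrix Mouse 430 2.0 arrays, 16 in all. All groups, controls included, carried a lentivirus and were silenced before KCl. Nothing in the labels says whether the 2 biological replicates of a group were dissected separately, so the p-values here reflect only how far these arrays differ from each other.

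As background, Inhba encodes the beta-A chain whose dimer is activin A. This ligand binds type II receptors (Acvr2a, Acvr2b), recruits the type I receptor Acvr1b and signals through Smad2 and Smad3. Fst encodes follistatin, which binds activin and keeps it from its receptors. Tgfb2 uses the same SMADs through its own receptors, Pdgfa and Pdgfc encode ligands of the PDGF receptors, Hbegf and Nrg1 encode membrane-anchored EGF-family ligands that proteases release, Vegfa acts on endothelial and neuronal receptors, and Igf1 acts on the IGF-1 receptor. Inhba is well known as a gene that neuronal activity induces in the forebrain.

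Sequence upstream of annotated starts is shown for the 4 members with the largest KCl changes at 6 h, because c-Fos pairs with Jun proteins at AP-1 sites. Windows from 250 bases before to 50 after a RefSeq start (GRCm38.p6) were searched on both strands for the AP-1 letters TGANTCA, for the cAMP response element TGACGTCA, and for the core TGACG, which also lies inside the full element. For 6 members, 8 windows were searched. The 250 bases before the start are printed 5′ to 3′ on the gene's strand, with matches in capitals.
Igf1, chr10:87860861-87861110, plus strand: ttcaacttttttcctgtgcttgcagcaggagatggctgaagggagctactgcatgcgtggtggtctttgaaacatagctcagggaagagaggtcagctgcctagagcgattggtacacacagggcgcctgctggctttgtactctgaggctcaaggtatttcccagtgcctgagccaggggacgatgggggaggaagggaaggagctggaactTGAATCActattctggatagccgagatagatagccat
Tgfb2, chr1:186705990-186706239, minus strand: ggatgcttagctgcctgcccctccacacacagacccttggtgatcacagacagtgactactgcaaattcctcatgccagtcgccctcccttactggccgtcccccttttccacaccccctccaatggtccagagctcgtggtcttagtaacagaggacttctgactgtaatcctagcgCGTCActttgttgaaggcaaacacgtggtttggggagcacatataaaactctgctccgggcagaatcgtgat
Pdgfc, chr3:81036166-81036415, plus strand: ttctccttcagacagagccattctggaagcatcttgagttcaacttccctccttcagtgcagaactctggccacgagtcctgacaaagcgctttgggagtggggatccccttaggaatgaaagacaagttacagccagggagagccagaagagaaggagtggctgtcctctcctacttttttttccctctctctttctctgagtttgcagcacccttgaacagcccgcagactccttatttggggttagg
Inhba, chr13:16011601-16011850, plus strand: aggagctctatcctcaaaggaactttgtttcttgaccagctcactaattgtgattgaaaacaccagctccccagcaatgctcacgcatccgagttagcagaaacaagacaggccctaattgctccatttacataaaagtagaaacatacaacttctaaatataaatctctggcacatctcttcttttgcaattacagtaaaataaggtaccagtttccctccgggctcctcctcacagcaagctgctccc
The Pdgfc window ends at the base before the annotated gene, and the other 3 windows lie at starts inside their annotated genes. The Igf1 window held the AP-1 letters TGAATCA from 37 to 31 bases before the start, and 7.8% of 32851 windows of that length held an AP-1 match. The Tgfb2 window held 1 such core, CGTCA as read on the gene's strand, 72 to 68 bases before the start, as did 1 of the Pdgfa and 1 of the Vegfa windows, against 20.8% of all windows. None of the 8 windows held the full element, which was in 1.8% of all windows, and the Inhba and Pdgfc windows held no match. These are matches of letters in short windows and say nothing of binding.

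The deposited values were linear intensities, and intensities of different probe sets cannot be set against each other as levels. Fos, the target of the shRNA, read 232 to 261 in control and 118 to 152 in c-Fos shRNA arrays at 0 h, and 11898 to 14719 against 3142 to 9623 at 1 to 6 h, so it was lower but not absent. All 8 neuronal markers were tested and summed to 68939 to 80079 in c-Fos shRNA and 73085 to 85253 in control arrays. Of 11 microglial markers 2 passed the filter. So did 9 of 9 astrocyte markers, 6 of 8 of the oligodendrocyte lineage, and 7 of 8 of progenitors and dividing cells. Arrays with the same replicate number deviated together in all 28 pairs of groups, so results of a fit that blocks on that number (the replicate block) are given where they change a call. Because whole cultures were measured, fewer cells of a type and less RNA per cell cannot be told apart.

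KCl for 6 h raised most of these genes in control neurons, and the genes that moved furthest encode TGF-beta 2, IGF-1 and PDGF-C. Calls here mean an adjusted p below 0.05 (limma, Benjamini-Hochberg over all 13915 genes). At 6 h, 6 of 9 members were called higher and 0 lower, where 16.7% of all genes were called higher. Their median log2 change was 0.83 against -0.07 over all genes. The 6 h count was 8 with the replicate block, where 21.7% of all genes were called higher. Among the 6 was Pdgfa, with a change of 0.17 close to the threshold (adjusted p = 0.0454 in limma). At 3 h, 4 were called higher where 11% of all genes were, and at 1 h only Vegfa was, where 3.12% changed in either direction. The 3 h count was 7 with the replicate block, where 15.8% of all genes were called higher. It was 2 without replicate 2 at 0 h and 2 without either 3 h array, and the 1 h count was 0 without replicate 1 at 0 h or without either 1 h array.

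With c-Fos shRNA, KCl raised 4 members at 6 h (Tgfb2, Igf1, Pdgfc and Vegfa), where 16.1% of all genes were called higher, and 3 at 3 h, where 9.9% were. Their median log2 change at 6 h was 0.39 against -0.06 over all genes. With the replicate block, 7 were called higher and 1, Fst, lower at 6 h (21.6% and 33.3% of all genes), and 6 higher and 1 lower at 3 h (14.5% and 28.4%). The 3 h count was 1 without replicate 1 at 0 h and 0 without replicate 2 at 3 h. At 1 h limma called 0 members, with 1 at an unadjusted p under 0.05 and 1 with the block, Vegfa, where 3.38% and 8.33% of all genes were called.

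**Figure D1:**
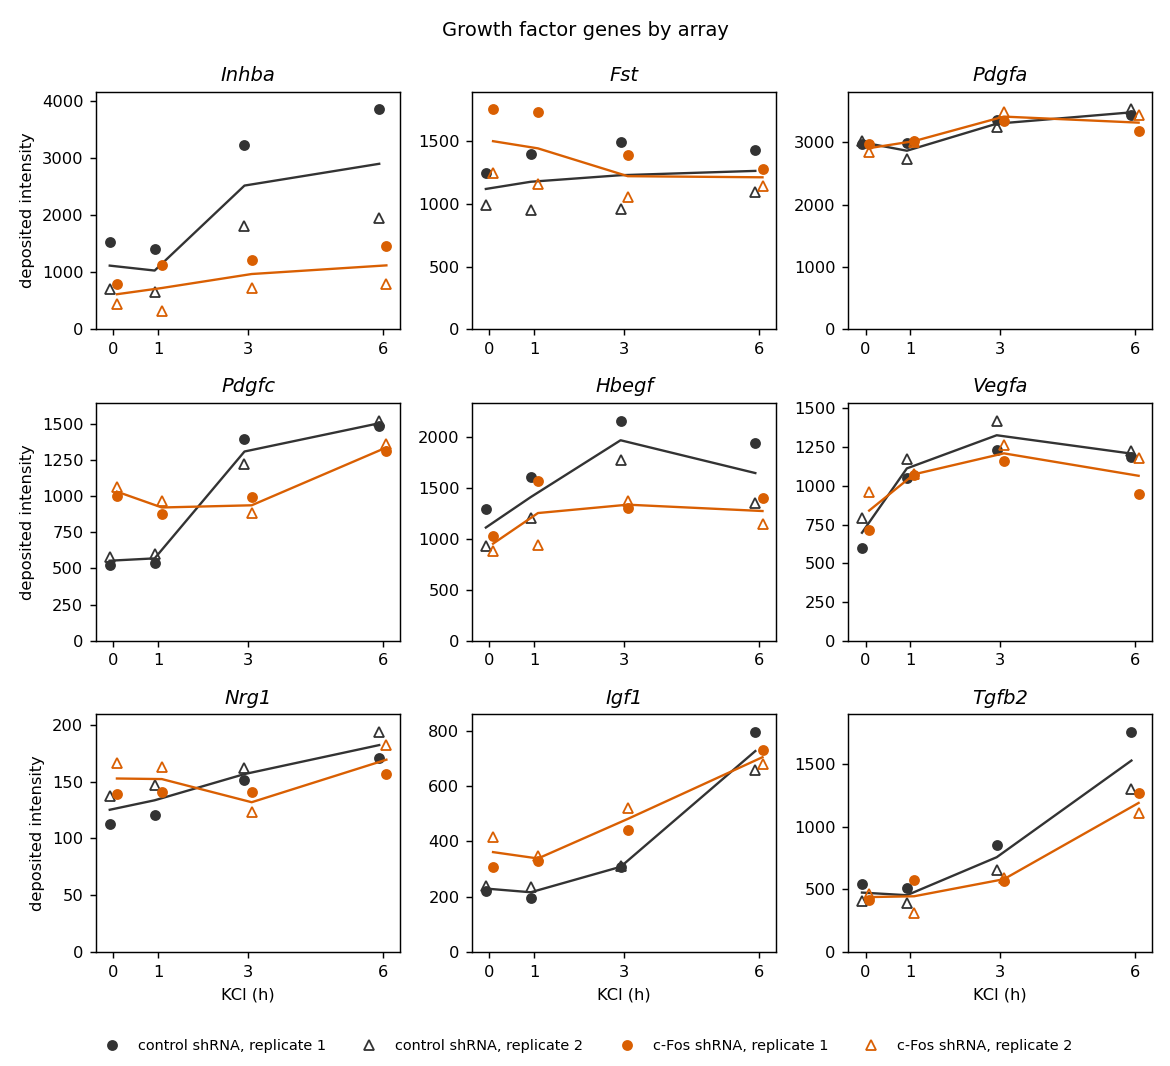
Deposited intensity (linear axis from 0) of the brightest probe set of each gene against hours of KCl, 1 point per array, with lines through the group means of control shRNA (black) and c-Fos shRNA (orange). Inhba reads lower with c-Fos shRNA and higher in replicate 1 throughout, and the Pdgfc lines cross between 1 and 3 h.

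**Figure D2:**
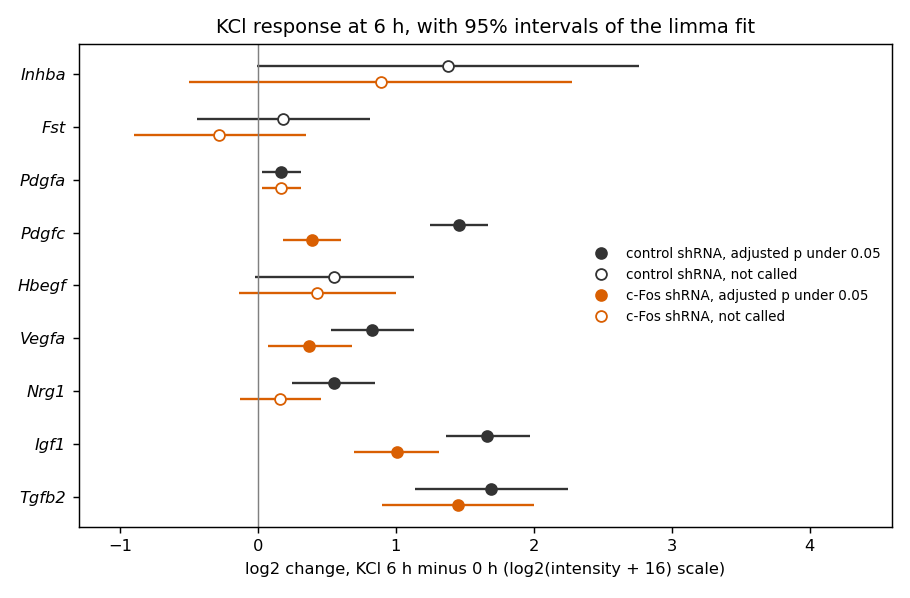
Log2 change between 0 and 6 h of KCl for the 9 genes in each shRNA arm, with 95% intervals from the limma fit; filled points passed an adjusted p of 0.05. Tgfb2 (1.69 and 1.45) and Igf1 (1.66 and 1.01) rose in both arms, and the intervals of the arms do not overlap for Pdgfc and Igf1. Tested directly in limma, the difference between the responses was called for Pdgfc. For Igf1 it was -0.66 and not called (adjusted p = 0.141, or 0.0278 with the replicate block).

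Inhba, the activin beta-A chain, read 1529.8 and 702 in control arrays at 0 h, in the order of replicates 1 and 2. After 1 h it stood at 1401 and 659, after 3 h at 3216 and 1813, and after 6 h at 3847 and 1943. The c-Fos shRNA arrays read 793 and 439.6 before KCl, then 1128 and 322, 1206 and 733, and 1453 and 788 after 1, 3 and 6 h. Both control arrays at 3 h and at 6 h stood above both at 0 h, and above both c-Fos shRNA arrays of the same time, whereas the arms overlapped at 0 and 1 h. Replicate 1 was higher than replicate 2 in 8 of 8 groups, by 0.72 to 1.78 on the log2 scale, which widened the error of every Inhba contrast.

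The log2 change of Inhba at 6 h of KCl was 1.38 with control shRNA (SE 0.64, adjusted p = 0.102 in limma). With the replicate block its SE was 0.17 and its adjusted p 2.57e-06. At 3 h it was 1.20 (adjusted p = 0.195, or 1.91e-05 with the block), and at 1 h -0.17. With c-Fos shRNA the changes were 0.71 at 3 h and 0.89 at 6 h, not called without the block and called with it (adjusted p = 0.00243 and 0.00025). With 1 array left out, the 6 h change ran from 0.80 (without replicate 2 at 0 h) to 1.95 (without replicate 1 at 0 h) with control shRNA, and from 0.41 to 1.37 with c-Fos shRNA for the same replicates. The 3 h changes ran from 0.62 to 1.77 and from 0.23 to 1.19, again with the 0 h arrays at the ends. These fits had no replicate block, so the ranges include the difference between replicate numbers. Between same-numbered arrays the 6 h changes were 1.29 and 1.47 with control and 0.88 and 0.91 with c-Fos shRNA. The response was not called different between arms, with a difference at 6 h of -0.49 (95% interval -2.45 to 1.47). With the replicate block that interval was -0.99 to 0.01, also not called (adjusted p = 0.2 in limma).

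Inhba fell below control with c-Fos shRNA when the 4 times were averaged, by -1.01 on the log2 scale (SE 0.32, adjusted p = 0.0193 in limma). The differences at the 4 single times were -0.82, -0.62, -1.31 and -1.31, with adjusted p from 0.167 to 0.563 without the block. With it, all 4 were called (adjusted p from 1.15e-05 to 0.00721). With 1 array left out, the single-time differences ranged from -1.39 to -0.24 at 0 h, from -1.51 to 0.27 at 1 h (above 0 without c-Fos shRNA replicate 2), from -1.71 to -0.90 at 3 h and from -1.79 to -0.82 at 6 h. These leave-one-out fits had no replicate block, so each also shifted the balance of replicate numbers. In same-numbered arrays the 1 h differences were -0.29 and -0.96. Inhba was lower with c-Fos shRNA in 8 of 8 such pairs, by -0.29 to -1.35. The pairs are 2 replicate numbers at 4 times, and the share of all genes lower in every pair is not given here. Of all genes, limma called 22.7% lower on the average of the 4 times, or 28.6% with the block. The average stayed between -0.79 and -1.24 when any 1 of the 16 arrays was left out, and was called each time, but the mean of both Inhba probe sets gave -0.44, not called (adjusted p = 0.139). A second Inhba probe set was dim, at 10.8 to 56.8, and below the filter.

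Cell type markers also differed by replicate number, most of them in the direction opposite to Inhba. The summed intensity of 13 markers of vascular cells and fibroblasts, of which 9 passed the filter, was 906 to 1116 in replicate 1 and 1906 to 2100 in replicate 2. Oligodendrocyte lineage markers summed to 9178 to 13019 against 13629 to 17570, and astrocyte markers were also lower in replicate 1 in all 8 groups. Excitatory neuron markers, 5 on the array, were higher in replicate 1 in 7 of 8 groups, by -0.03 to 0.13 on the log2 scale. Some marker sums also differed between the arms. Excitatory neuron markers summed to 14041 and 14331 with c-Fos shRNA at 0 h, against 18084 and 17487 in controls. At 6 h they summed to 18219 and 17034 against 19093 and 18661. Astrocyte markers ran from 19300 to 27750 with c-Fos shRNA and from 21290 to 30400 in controls. Inhibitory neuron markers ran from 18280 to 28940 and from 19060 to 27790. Astrocyte, excitatory neuron and general neuronal sums were lower with c-Fos shRNA in every same-numbered pair, and the other sums went in both directions. The part of all these markers in the Inhba result was not tested.

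Fst, the activin-binding protein, read 1244 and 995 in control arrays at 0 h and 1430.4 and 1097 at 6 h. In the c-Fos shRNA arm the values were 1754 and 1246, then 1281 and 1145, at those times. Its range over all 16 arrays was 952 to 1754, and replicate 1 was higher in 8 of 8 groups. Its log2 change at 6 h was 0.18 with control shRNA (adjusted p = 0.655) and -0.28 with c-Fos shRNA (adjusted p = 0.491), neither called in limma. With the replicate block the second change was called (adjusted p = 0.0162), as was the 3 h change in that arm, -0.28 (0.0198). The block also called differences between arms of 0.40 at 0 h (0.00218) and 0.32 at 1 h (0.0101), against 0.378 and 0.501 without it, and the difference between the responses at 6 h, -0.46 (0.0313, against 0.703). The dimmer probe set of Fst was not called in any of these comparisons without the block.

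Pdgfc, which encodes a PDGF secreted in a latent form, was the member whose KCl response differed most between the arms. Control arrays read 525 and 581 before KCl, 537 and 601 after 1 h, 1394 and 1219.8 after 3 h, and 1484 and 1520.0 after 6 h. The c-Fos shRNA arrays read 1000.5 and 1059, then 879 and 962, 991 and 879.7, and 1310.4 and 1359. Both c-Fos shRNA arrays stood above both control arrays at 0 and 1 h, and below both at 3 and 6 h.

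KCl raised Pdgfc with control shRNA by 1.25 at 3 h (SE 0.10, adjusted p = 1.38e-06 in limma) and by 1.46 at 6 h. With c-Fos shRNA the change was -0.12 at 3 h (adjusted p = 0.439) and 0.39 at 6 h (0.00634). Relative to control, Pdgfc was higher with c-Fos shRNA by 0.90 at 0 h (adjusted p = 3.99e-05) and 0.72 at 1 h (0.000248), lower by -0.46 at 3 h (0.00397), and at -0.17 at 6 h (0.252). The 3 h difference was -0.37 and no longer called without control replicate 1 at 3 h (adjusted p = 0.0559).

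The KCl response of Pdgfc itself differed between arms, by -1.37 at 3 h (95% interval -1.67 to -1.07, adjusted p = 0.00131 in limma) and by -1.07 at 6 h (-1.37 to -0.77, 0.00494). At 3 h 0.402% of all genes were called for this difference and at 6 h 1.24%, and Pdgfc was the only member called at either time. No member was called at 1 h, at an adjusted or an unadjusted p, where 0.0431% of all genes were called. With the block 3 more were called at 6 h, all below 0: Igf1 (-0.66), Fst (-0.46) and Vegfa (-0.45), where 11.3% of all genes were called. Under each of 19 alternatives, leaving out single arrays included, the Pdgfc values stayed between -1.46 and -1.22 at 3 h and between -1.14 and -0.98 at 6 h, called each time (highest adjusted p 0.0403 and 0.0343). The second Pdgfc probe set gave -1.06 at 3 h (adjusted p = 0.0398 over probe sets, of which 0.155% were called) and -0.89 at 6 h (0.0569).

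Pdgfa, the other PDGF chain, was nearly flat. It read 2973 and 3027 in control arrays at 0 h and 3431 and 3527 at 6 h, and 2969 and 2842 against 3186 and 3441 with c-Fos shRNA. Its log2 change of 0.17 at 6 h with control shRNA was called (adjusted p = 0.0454 in limma) but lost its call when any 1 of the 4 arrays was left out (0.16 to 0.18). With c-Fos shRNA the change was 0.20 at 3 h (adjusted p = 0.0354), also lost without either 3 h array or replicate 2 at 0 h (0.13 to 0.21), and 0.17 at 6 h (0.0506, or 0.0177 with the replicate block). Without replicate 1 at 0 h that last change was 0.23 and was called. The second probe set changed by 0.48 at 6 h with control shRNA (adjusted p = 0.00382 over probe sets, of which 35.4% were called), so the size of the change depends on the probe set. Between arms Pdgfa differed by -0.04 to 0.10, with no call at any time.

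Tgfb2, a ligand of the TGF-beta receptors, rose late in both arms. Control arrays read 543 and 408 before KCl, then 515 and 394, 856 and 659, and 1757 and 1300.3 after 1, 3 and 6 h. The c-Fos shRNA arrays read 416 and 463 before KCl, then 576 and 315, 569 and 595, and 1267 and 1114. Every 6 h array stood above every array of the earlier times in both arms.

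The 6 h change of Tgfb2 was 1.69 with control shRNA (SE 0.25, adjusted p = 0.000159 in limma) and 1.45 with c-Fos shRNA (SE 0.25, 0.000618), and both calls held without any 1 array. All 4 Tgfb2 probe sets were called higher in both arms, by 1.43 to 2.02 and by 0.89 to 1.51, where 35.4% and 32.1% of all probe sets were called. The arms differed by -0.10, -0.05, -0.35 and -0.34 at 0, 1, 3 and 6 h, none called, with a 95% interval at 6 h of -0.89 to 0.22. Their average on this brightest probe set, -0.21, was called with the replicate block alone (adjusted p = 0.024, against 0.204). It ran from -0.31 to -0.01 over the alternatives. Each other Tgfb2 probe set had a higher mean with c-Fos shRNA at 0 and 1 h and a lower one at 3 and 6 h. At 0 h these means were 8.88, 7.76 and 6.62 against 8.51, 7.64 and 6.27 (log2). Also called with the block alone were the 3 h changes of 0.71 with control (0.000926, against 0.052) and 0.45 with c-Fos shRNA (0.0215, against 0.228). Without control replicate 1 at 0 h the first of these was 0.93 and was called. Of the 6 h change, 0.98 with control and 0.99 with c-Fos shRNA came after 3 h (adjusted p = 0.0197 and 0.0189, where 7.95% and 8.97% of all genes were called higher). These 2 steps lost their calls without control replicate 2 at 3 h (0.79) or replicate 1 at 6 h (0.76), and without c-Fos shRNA replicate 1 at 3 h (0.98), replicate 2 at 3 h (1.01) or replicate 1 at 6 h (0.87).

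Igf1, the ligand of the IGF-1 receptor, rose in both arms and was measured by 4 probe sets that parted between the arms. On the brightest, control arrays read 219.5 and 239.9 before KCl, 197 and 236 after 1 h, 307 and 309.9 after 3 h, and 796 and 658 after 6 h. The c-Fos shRNA arrays read 307 and 416, then 329 and 348, 443 and 520.2, and 729 and 679.8. The c-Fos shRNA arrays were higher at 0, 1 and 3 h without overlap, and the arms overlapped at 6 h.

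The 6 h change was 1.66 with control shRNA (SE 0.14, adjusted p = 1.66e-06 in limma) and 1.01 with c-Fos shRNA (0.000109), and both calls held without any 1 array. Igf1 was higher with c-Fos shRNA by 0.61, 0.63 and 0.63 at 0, 1 and 3 h (adjusted p from 0.00573 to 0.00757), and at -0.04 at 6 h (0.865). The 0 h call was lost without c-Fos shRNA replicate 2 (0.47) or control replicate 1 (0.57), the 1 h call without control replicate 1 (0.52), and the 3 h call without c-Fos shRNA replicate 2 (0.54). The smaller changes at 3 h of KCl, 0.45 and 0.47, were called but lost without any 1 of the 4 control arrays (0.40 to 0.49), and in the c-Fos shRNA arm without replicate 1 at 0 h (0.32) or replicate 2 at 3 h (0.37). Both were also lost with no further normalization (adjusted p = 0.0731 and 0.0714) and with only the groups compared (0.0575 and 0.0583).

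A second bright probe set ran close to the first, with a difference between arms of 0.82 at 0 h and 0.05 at 6 h. The other pair gave another picture. On the third probe set control arrays read 56.4 and 40.0 at 0 h and 566 and 644 at 6 h, and c-Fos shRNA arrays 58.9 and 43.3 at 0 h and 312 and 344 at 6 h. The arms thus overlapped at 0 h, and both c-Fos shRNA arrays were lower at 6 h, by -0.86 (SE 0.20, adjusted p = 0.0118 in limma over 31526 probe sets, of which 17.2% were called). On the fourth, both c-Fos shRNA arrays were higher at 0 h (53.1 and 40.0 against 25.8 and 31.6), by 0.48 and not called (adjusted p = 0.0966), and the 6 h difference was -0.60 (0.0367). KCl at 6 h with control shRNA changed these by 3.34 and 3.06, against 1.84 and 1.66 on the brighter pair. The called arm differences thus lay at 0 to 3 h on the brighter pair and at 6 h on the dimmer pair. At 3 h the third probe set already read lower with c-Fos shRNA, 118 to 155 against 213 to 226. That is opposite in sign to the brighter pair at that time. Which transcripts each one detects was not analysed here. With the mean of all 4 probe sets, the arm difference was 0.08 at 3 h, not called (adjusted p = 0.598), and -0.36 at 6 h, called (0.00742). That mean also gave KCl changes of 1.13 and 0.71 at 3 h and 2.48 and 1.61 at 6 h, with control and c-Fos shRNA.

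**Figure D3:**
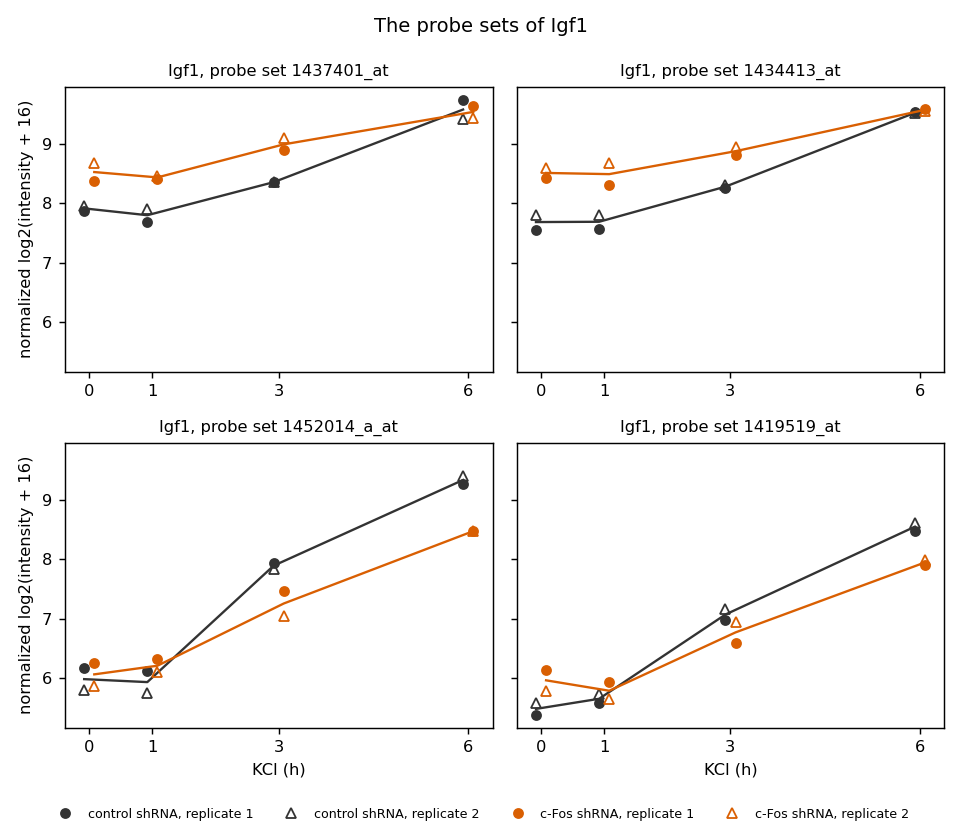
Normalized log2(intensity + 16) of the 4 Igf1 probe sets against hours of KCl, 1 point per array, with lines through group means. On the upper pair c-Fos shRNA (orange) lies above control (black) at 0 to 3 h and meets it at 6 h. On the lower pair the c-Fos shRNA line lies below control at 3 h and at 6 h (-0.86 and -0.60 at 6 h).

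Cell type markers were read beside Igf1 because glia and interneurons can also make it. Microglial markers summed to 381 to 464 in control and 418 to 511 in c-Fos shRNA arrays, and 7 of 9 inhibitory neuron markers were called higher at 6 h of KCl in each arm, where 16.7% of all genes were with control and 16.1% with c-Fos shRNA. Their part in the Igf1 result was not tested.

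Vegfa, known as an endothelial growth factor and as a gene that low oxygen induces, changed first. Control arrays read 601 and 794 before KCl, then 1050.0 and 1175, 1232 and 1421, and 1189 and 1227 after 1, 3 and 6 h. Under c-Fos shRNA the values were 718 and 963, then 1070.4 and 1078, 1158 and 1261, and 949 and 1181. All stimulated control arrays stood above both at 0 h. The arms overlapped at 0, 1 and 3 h, and at 6 h both c-Fos shRNA arrays lay below both controls.

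The log2 change of Vegfa with control shRNA was 0.62 at 1 h (SE 0.14, adjusted p = 0.0298 in limma), 0.94 at 3 h (0.000223) and 0.83 at 6 h (0.000371). The 1 h call was lost without replicate 1 at 0 h (0.43), replicate 1 at 1 h (0.70) or replicate 2 at 1 h (0.55), and with only the groups compared in the fit (adjusted p = 0.198), and the later calls held without any 1 array. With c-Fos shRNA the changes were 0.34, 0.56 and 0.37 (adjusted p = 0.366, 0.00854 and 0.0482, the first 0.0257 with the replicate block). The 3 h call was lost without replicate 1 at 0 h (0.41) or replicate 2 at 3 h (0.51), and the 6 h call without replicate 1 at 0 h (0.22) or replicate 2 at 6 h (0.26). In all, 9 of 15 alternatives ended that 6 h call, among them no further normalization (0.34, adjusted p = 0.117) and the mean of both probe sets (0.28, 0.09). Between arms Vegfa differed by 0.27 at 0 h, called with the block alone (adjusted p = 0.025), and by -0.02, -0.11 and -0.19 at the later times, not called. The dimmer Vegfa probe set gave 0.58 at 3 h (adjusted p = 0.0106) and 0.37 at 6 h (0.0648) with control shRNA.

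Hbegf, a shed ligand of the EGF receptor, read 1291 and 935 in control arrays before KCl, then 1613 and 1211, 2163 and 1777, and 1939 and 1357 after 1, 3 and 6 h. With c-Fos depleted the arrays read 1031 and 878, then 1569 and 941, 1303 and 1372, and 1405 and 1145. The arms were apart only at 3 h, where both control arrays were higher. The 3 h change with control shRNA was 0.81 (SE 0.26, adjusted p = 0.0345 in limma), lost without replicate 2 at 0 h (0.57), replicate 1 at 3 h (0.67) or replicate 2 at 3 h (0.95), and in a fit with no intensity trend (adjusted p = 0.0536). The 6 h change was 0.55 (adjusted p = 0.112, or 0.00105 with the replicate block). With c-Fos shRNA the changes were 0.51 at 3 h (0.192, or 0.0032 with the block) and 0.43 at 6 h (0.225, or 0.00725).

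On its brightest probe set Hbegf was lower with c-Fos shRNA in 8 of 8 same-numbered pairs, by -0.03 to -0.69. The mean difference over the 4 times was -0.31 (adjusted p = 0.0672, or 0.000318 with the block), at 3 h -0.52 (0.187, or 0.00287) and at 6 h -0.34 (0.396, or 0.0354). The average was also called without c-Fos shRNA replicate 1 at 1 h (-0.41) or control replicate 2 at 0, 1 or 6 h (-0.37 to -0.38). The second Hbegf probe set was less scattered. It read 532 and 502 in control at 0 h and 844 and 876 at 6 h. The c-Fos shRNA arrays read 537 and 543, then 707 and 615. On this probe set both c-Fos shRNA arrays thus stood above both control arrays at 0 h, and the arms overlapped at 1 h. On it the KCl changes at 3 and 6 h were 0.89 and 0.79 with control and 0.52 and 0.34 with c-Fos shRNA, all called, and the arms differed by -0.38 at 6 h (adjusted p = 0.0468 over probe sets). The difference between the 2 responses at 6 h was -0.45 on that probe set and not called (0.324).

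Nrg1, the ligand of the ErbB3 and ErbB4 receptors, was dim and had 1 probe set. It read 113 and 137 in control arrays at 0 h and 170.5 and 194 at 6 h, and 139 and 166.5 against 157 and 182 with c-Fos shRNA. The arms overlapped at 6 h. Its log2 change at 6 h with control shRNA was 0.55 (SE 0.14, adjusted p = 0.00552 in limma), and without control replicate 1 at 0 h it was 0.44 and not called (0.056). With c-Fos shRNA it was 0.16 (adjusted p = 0.382), and the difference between the responses, -0.39, was not called (0.411). At 3 h with control shRNA the change was 0.33 (0.0892, or 0.0392 with the replicate block).

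Across the 9 genes, c-Fos depletion was associated with a few differences in both directions. At 0 and at 1 h 2 members were called, Pdgfc and Igf1, both higher, where 22.3% and 20.7% of all genes were called. At 3 h Igf1 was higher and Pdgfc lower, where 23.3% of all genes were called. At 6 h limma called 0 of 9, with 0 at an unadjusted p under 0.05, where 23.8% of all genes were called. With the block Inhba and Hbegf were called lower at 6 h, and the counts at 0, 1 and 3 h were 5, 4 and 4, where 38.8%, 37.9% and 40.4% of all genes were called, against 41.5% at 6 h. The count at 0 h was 1 without c-Fos shRNA replicate 2 or control replicate 1, at 1 h 1 without control replicate 1, and at 3 h 1 without c-Fos shRNA replicate 2 or control replicate 1.

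Averaged over the 4 times, Inhba was lower and Igf1 (0.46) and Pdgfc (0.25) were higher with c-Fos shRNA, 3 of 9 members where 47.9% of all genes were called. With the mean of the 4 probe sets Igf1's average was 0.17, still called. With the block 6 were called, where 60.4% of all genes were. Without c-Fos shRNA replicate 1 at 1 h the averages of Hbegf and Tgfb2, each on its brightest probe set, were -0.41 and -0.31.

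**Figure D4:**
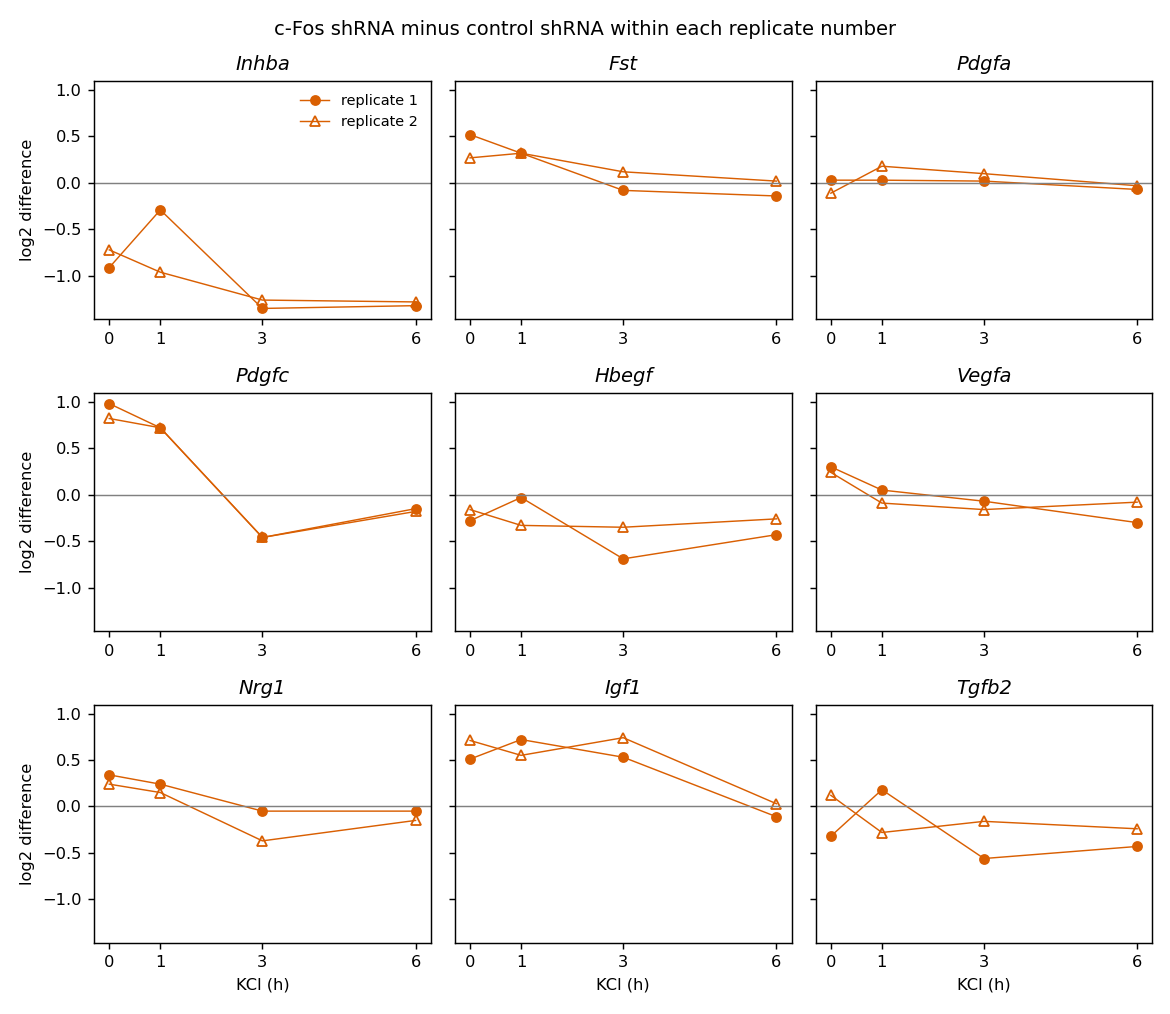
Difference between c-Fos shRNA and control shRNA arrays of the same replicate number (normalized log2 scale) against hours of KCl, for each gene, with 1 line per replicate number and 0 marked in grey. Inhba and Hbegf are below 0 in 8 of 8 pairs, and Pdgfc goes from above 0 at 0 and 1 h to below 0 at 3 and 6 h in both replicates.

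The partners of these ligands were read from 10 lists of ligands, receptors, antagonists and downstream genes, with 128 symbols of which 101 were tested. With control shRNA at 6 h of KCl, 16 were called higher and 8 lower, 23.8% against 44.1% of all genes called. With the replicate block these were 27 and 15, where 56.9% of all genes were called. Between arms 10 were higher and 7 lower with c-Fos shRNA at 0 h, and 9 were higher and 9 lower at 6 h. These were 16.8% and 17.8% of the listed genes, against 22.3% and 23.8% of all genes. With the block they were 21 and 21, and 18 and 21, where 38.8% and 41.5% of all genes were called.

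The receptor genes were called lower with KCl about as often as all genes. With control shRNA at 6 h of KCl the type I receptor gene Acvr1b changed by -0.87 (SE 0.09, adjusted p = 5.4e-06 in limma), and the type II genes Acvr2a and Acvr2b by -0.60 and -0.40, the last lost without replicate 1 at 0 h or either 6 h array (-0.27 at the least). The changes with c-Fos shRNA were -0.95, -0.49 and -0.71. Acvr1, a receptor better known for BMP ligands, changed by 0.70. In all, 1 of 12 tested receptor genes of the family rose and 3 fell, where 16.7% of all genes were called higher and 27.4% lower. With the replicate block these were 3 and 3, where 21.7% and 35.2% of all genes were. Acvr1b was higher with c-Fos shRNA than with control by 0.81 at 0 h and 0.73 at 6 h (adjusted p = 3.62e-05 and 9.28e-05). At 0 h Tgfbr1 was also higher, by 0.65, and Bmpr1a lower, by -0.67. In all, 2 receptor genes were called higher and 1 lower at 0 h, and again 2 and 1 at 6 h. With the block these were 4 and 2, and 2 and 4. Of all genes 22.3% and 23.8% were called, or 38.8% and 41.5% with the block.

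Downstream, 5 of 14 SMAD genes and regulators rose with control shRNA at 6 h and 0 fell, or 8 and 2 with the block, beside the all-gene shares of 16.7% higher and 27.4% lower, or 21.7% and 35.2% with the block. Smad7, which encodes an inhibitory SMAD that the pathway itself induces, rose by 1.38 (SE 0.15, adjusted p = 9.72e-06 in limma), and by 0.50 with c-Fos shRNA, a call lost without replicate 2 at 0 h or either 6 h array (0.37 to 0.63). It was lower with c-Fos shRNA by -0.97 at 6 h (adjusted p = 0.000496) and at -0.09 at 0 h. The difference between the responses was -0.88, adjusted p = 0.0645, or 0.00146 with the replicate block. The corepressor gene Tgif1 changed by 0.93, Smad2 by 0.60 and Tgif2 by 0.56. Between arms, Zfyve9 was higher with c-Fos shRNA by 1.02 at 0 h and 0.91 at 6 h, and Smurf1 by 0.65 and 0.48. Of the 14 genes 3 were called higher and 0 lower at 0 h, and 2 higher and 2 lower at 6 h. With the block these were 5 and 1, and 4 and 3. Of all genes 22.3% and 23.8% were called, or 38.8% and 41.5% with the block.

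Among other ligands of the family, Tgfb3 changed by 1.61 with control shRNA at 6 h (SE 0.19, adjusted p = 2.89e-05 in limma) and by 0.50 with c-Fos shRNA, not called (0.0586, or 0.0278 with the block). Inha, the inhibin alpha chain that pairs with beta chains to oppose activin, changed by -0.54, lost without control replicate 2 at 0 h or replicate 1 at 6 h (-0.36 at the least), and by -0.81 with c-Fos shRNA. Inhbb, the beta-B chain, changed by -0.26 and -0.38, the second called with the block alone (0.0145). Fstl1, a follistatin-like antagonist, was higher with c-Fos shRNA by 2.31 at 0 h and 1.20 at 6 h (adjusted p = 1.63e-05 and 0.00173). It rose with KCl by 1.27 with control shRNA and read 0.16 with c-Fos shRNA, not called. The difference between these responses, -1.11, was called with the block alone (0.000191, against 0.109).

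For the PDGF family, 0 of 4 other tested ligand and receptor genes were called by limma at 6 h of KCl in either arm or between arms at 0 or 6 h without the block, Pdgfra reading -0.41 and Pdgfrb -0.24 in KCl with control shRNA. With the block 2, Pdgfb and Pdgfrb, were called lower with c-Fos shRNA at 0 h and at 6 h, and Pdgfrb fell with KCl in that arm (-0.50). Nrp1, a co-receptor for VEGF and semaphorins, rose with KCl by 0.66 and was lower with c-Fos shRNA by -1.12 at 0 h and -1.18 at 6 h (adjusted p = 1.5e-05 and 1.2e-05 in limma). Vegfc rose by 0.55 and Vegfd fell by 1.20, the last lost without control replicate 1 at 6 h.

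In the EGF family, none of the 5 other tested ligand genes was called by limma without the block in these comparisons, and with it 2 were called lower at 6 h of KCl with control shRNA and 2 between arms at 0 h. Errfi1, a feedback inhibitor of EGF receptors, rose by 1.80 with control and 1.91 with c-Fos shRNA (adjusted p = 1.43e-07 and 1.58e-07). Among the proteases, Adam10 was higher with c-Fos shRNA by 1.50 at 0 h and 1.24 at 6 h. Bace1, which cleaves neuregulin 1, was lower by -1.19 and -0.79 and fell with KCl by 0.65 with control shRNA.

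In the IGF list, Igf1r, the receptor of IGF-1, changed by 0.32 at 6 h of KCl with control shRNA (adjusted p = 0.253 in limma, or 0.0103 with the block) and by 0.62 with c-Fos shRNA (0.0339), the latter lost without either 0 h array or replicate 1 at 6 h (0.46 at the least). Insr was lower with c-Fos shRNA by -0.93 at 0 h and -0.66 at 6 h (3.4e-05 and 0.000426), and Irs1, an adaptor of both receptors, was lower by -0.58 at 0 h (0.000671). Without the block Irs1 was the only listed gene called for a difference between the KCl responses at 6 h, 0.69 (0.0284), and with 1 array left out that call held only without c-Fos shRNA replicate 2 at 0 h (0.58 to 0.80 over 8 such fits). With the block 3 listed genes were called higher and 8 lower for this difference, where 11.3% of all genes were called. Among remaining secreted factors, the matricellular genes Ccn2 and Ccn1 rose by 3.00 and 2.29 with control shRNA, and Fgf18 fell by 2.00.

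Over the 16 arrays, the courses of some members were alike. As a description, Pearson r of log2 values was 0.90 between Hbegf and Inhba, 0.85 between Nrg1 and Pdgfc, 0.82 between Igf1 and Pdgfc, and 0.80 between Igf1 and Tgfb2. The arrays share KCl times, shRNA arms and replicate numbers. Among all other tested genes, those nearest Inhba were Slc6a6 (0.957), Nectin1 (0.951) and Vgll4 (0.948), and Vgll4 was also nearest Hbegf (0.93). Nearest Pdgfc were Gpr37 (0.94), Antxr2 (0.937) and Eif4ebp1 (0.932), nearest Vegfa Plk3 (0.946), Ip6k2 (0.935) and Slc2a3 (0.933), and nearest Tgfb2 Plxdc2 (0.977), Lbh (0.97) and Plekho1 (0.967). Igf1 was nearest Tmod3 (0.973), Eepd1 (0.97) and Asph (0.97). The highest values for Fst, Nrg1 and Pdgfa were lower, at 0.893 with Gatad2a, 0.894 with Kctd20 and 0.903 with Rtn2.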

How the data were processed

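The 16 arrays were analysed from the deposited series table, which holds 1 linear intensity per probe set and array, from 0.51 to 23935.63. Per the labels, the authors labelled the RNA with biotin by in vitro transcription. How probes were summarised and scaled is not given in the sources used here. Dim probe sets were not tested against background, and precision is limited by the 2 arrays a group.

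Array medians ran from 104.75 to 118.56, a spread of 13.2%, above the 10% set for this step, so log2(intensity + 16) was quantile normalized. Because of the pseudocount, log2 changes computed from the deposited intensities are too small for dim genes. The platform annotation gave 1 gene for 34945 of 45037 non-control probe sets, several for 932 and none for 9160, and 34741 of the first matched the RefSeq gene table (GRCm38.p6). A gene was represented by its brightest probe set and kept if its mean log2 value exceeded the 30th percentile, 5.79.

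limma 3.58.1 in R 4.3.3 fitted 8 group means (residual df 8) with an intensity trend in eBayes, and p-values were adjusted by Benjamini-Hochberg over 13915 genes within each of 18 contrasts. Probe sets were also fitted one by one (31526). On simulated data with 200 changed genes for the 6 h KCl contrast with control shRNA, a log2 change of 1 was called in 88% of genes and one of 2 in 99%. For the difference between the responses at 6 h these shares were 69% and 99%. The simulated noise was drawn separately for each array, so it lacked the deviations that same-numbered arrays share. It changed 200 of 13915 genes, where 44.1% were called in the data for that KCl contrast. The shares average over genes and do not hold for a member with a wide error, such as Inhba (SE 0.64).

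Groups share replicate numbers in the labels. Same-numbered arrays deviated together (correlation of deviations from group means 0.36 to 0.60, median 0.48, over 28 pairs of groups), so the numbers were taken to pair the arrays. Alternatives covered normalization, pseudocount, filter, choice of probe set, trend, the arrays in the fit, the replicate block and each array left out.

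All 9 members were named. From the pathway lists, genes were named from among the called ones with the largest change (up to 4 a list for KCl at 6 h with control shRNA, up to 3 for the arms and for the difference of responses). Not all of these are given. Receptors and paralogues of a member were also named, as were genes from among the 3 with the highest r for a member. The members and lists were chosen with earlier results of these data known. Figures were drawn with matplotlib 3.10.9. No Hbegf sequence was analysed here.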

Additional observations from a re-analysis of the deposited data

Results flagged for a closer look

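The response of Pdgfc to KCl differed between the arms at both later times, by a test of the difference itself in limma. Under c-Fos shRNA the log2 change was below the control's by a difference of -1.37 at 3 h (adjusted p = 0.00131) and -1.07 at 6 h (0.00494). In both same-numbered pairs Pdgfc was higher with c-Fos shRNA at 0 and 1 h and lower at 3 and 6 h. Groups held 2 arrays each, so single arrays could not be tested as outliers.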

How the results depend on the processing

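Across 2646 recomputed member changes, 2494 kept their side of the threshold, 79 became called, 73 lost their call and 0 called changes reversed. Among the 2494 were 108 that were called in neither fit and turned sign. Pdgfc's difference of responses at 3 and 6 h stayed called under each of 19 alternatives. Counts of called members moved by over 1.5 times as follows. With the replicate block, which pairs same-numbered arrays, KCl called 7 at 3 h and 7 between 1 and 3 h with control shRNA. Of all genes the block called 44.4% and 34.7% there, against 30.2% and 21.2% without it. For KCl with c-Fos shRNA the block called 1 at 1 h, 7 at 3 h, 8 at 6 h and 4 between 1 and 3 h. Its all-gene shares were 8.33%, 42.9%, 55% and 33.6%, against 3.38%, 28.2%, 41% and 19.3% without it. Between arms the block called 5, 4, 4 and 2 at 0, 1, 3 and 6 h and 6 on average, and 4 for the difference of responses at 6 h. Of all genes it called 38.8%, 37.9%, 40.4%, 41.5%, 60.4% and 11.3% there. The counts not listed moved less. All-gene shares under the other settings and with 1 array left out are not given here, so those counts show only which member calls moved. With only the groups compared, the count was 0 at 1 h of KCl in controls and 4 between arms at 3 h, and without the trend it was 2 between 1 and 3 h with control shRNA. With the mean of all probe sets it was 5 at 3 h and 3 between 1 and 3 h with c-Fos shRNA, 1 between arms at 3 h and 1 at 6 h, and 2 for the difference of responses at 6 h. With probe sets tested one by one it was 5, 3 and, between arms at 6 h, 2. The mean of probe sets also ended Inhba's average call (-0.44, adjusted p = 0.139), since it includes the dim probe set. The cause of the other moves was not tested.

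Single arrays were also left out, without the replicate block and with the lone array of a group assumed to vary like the other groups. The ranges were as follows. With control shRNA the counts were 0 to 1 at 1 h, 2 to 4 at 3 h, 4 to 5 at 6 h, 1 to 3 between 1 and 3 h and 1 to 2 between 3 and 6 h. With c-Fos shRNA they were 0 to 2 at 3 h, 3 to 4 at 6 h, 0 to 1 between 1 and 3 h and 1 to 3 between 3 and 6 h. Between arms they were 1 to 2 at 0, 1 and 3 h, and 3 to 5 on average. Changes close to the threshold, such as those of Pdgfa, rest on 2 arrays a group.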
